A study of Mus musculus with 31 samples.

Results

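Chaperones of the endoplasmic reticulum (ER), the compartment in which secreted proteins fold, were followed through 10 groups of cultured mouse cardiac fibroblasts, beside the reads of collagen. The set was 10 genes picked by symbol among the 24421 genes of the count table: Hspa5, Hsp90b1, Calr, Pdia4, Pdia6, Dnajb9, Xbp1, Sdf2l1, Creld2 and Manf. All 10 were present, and all 10 were among the 14036 genes that passed the filter on low counts. Of the 10, 9 encode folding proteins of the ER lumen or their helpers, and Xbp1 encodes a transcription factor of the same response. The lowest count of any of them in a library was 135 reads, for Sdf2l1 in 2D-5days replicate 1.

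Fibroblasts were taken fresh from hearts of C57Bl/6 mice 8 to 12 weeks old and held in a flat layer (2D), in a 3D arrangement, or in a succession of both. RNA was sequenced from 3 libraries of 3D-2D-3D, 3 of 3D-2D-2D, 2 of 3D-2D, 3 of 3D and 3 of 2D cultures, where the hyphens are read as the order of arrangements. There were also 3 libraries of 3D-5days and 3 of 2D-5days cultures, and 3 from each of the flat substrates, whose stiffness was 0.5, 8 or 64 kPa. The labels name no allele and no drug in any group. Apart from the 5 days, no source used here gives the time in an arrangement, the substrate material or the number of mice behind a library. Since no label says whether a group's libraries stem from different cultures or animals, the p-values below measure only how these libraries vary, and that variation may be technical.

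In the ER lumen, Hspa5 (BiP) binds unfolded stretches of new chains, J-domain helpers such as Dnajb9 bring it substrates, and disulfide isomerases such as Pdia4 and Pdia6 pair the cysteines of the client. When unfolded protein builds up, the sensors Ern1 (IRE1), Atf6 and Eif2ak3 (PERK) are set free: IRE1 splices the Xbp1 message, ATF6 is cut to a transcription factor, and PERK slows translation. Spliced XBP1 and cleaved ATF6 raise the genes of this set. Fibroblasts secrete collagen in bulk, and its triple helix is made in the ER with collagen-specific helpers beside the general ones. The table counts reads per gene and does not tell spliced from unspliced Xbp1.

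A known route from ATF6 to these genes is the ER stress response element (ERSE), CCAAT and CCACG with any 9 bases between them, in which NF-Y binds at CCAAT and ATF6 at CCACG. Both strands of the 250 bases before the RefSeq start were searched (build GRCm38.p6, the mm10 genome), and 9 of the 10 genes had such a window. The window of Manf was not among those used here. The whole element stood in the windows of 5 of these 9 genes, against 0.113% of all windows of this length (37 of 32851). Since the set was picked from genes known to answer by this route, that excess comes with the choice and is not a result of these data. The first share also counts genes and the second windows. The sites are shown because these 5 genes include most of those that differed below. They are read 5′ to 3′ along the strand on which CCAAT comes first, with 20 bases on either side, and capitals mark CCAAT and CCACG.
Hspa5 (chr2:34772005-34772063, + strand): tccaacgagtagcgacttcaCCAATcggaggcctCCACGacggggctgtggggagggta
Hsp90b1, far site (chr10:86705618-86705676, - strand): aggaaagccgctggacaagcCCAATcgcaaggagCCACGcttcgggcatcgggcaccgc
Hsp90b1, near site (chr10:86705513-86705571, + strand): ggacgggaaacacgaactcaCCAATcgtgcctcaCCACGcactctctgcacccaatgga
Calr (chr8:84847055-84847113, + strand): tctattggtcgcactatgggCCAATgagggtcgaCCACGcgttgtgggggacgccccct
Pdia6 (chr12:17266471-17266529, + strand): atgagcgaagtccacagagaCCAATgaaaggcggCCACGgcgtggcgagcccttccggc
Creld2 (chr15:88819500-88819558, - strand): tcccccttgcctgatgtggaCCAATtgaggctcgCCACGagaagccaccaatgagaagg

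The 19 letters of the element lay 65 to 47 bases before the start of Hspa5, 98 to 80 before Pdia6, 126 to 108 before Creld2 and 162 to 144 before Calr. Hsp90b1 had 2 whole sites, 212 to 194 and 107 to 89 bases before its start. It also had a site with 1 other letter in CCACG, 172 to 154 bases before its start, which is not shown. Pdia4 had a site of that form, held by 0.804% of all windows, and no whole one. The Pdia4 site is shown for comparison with the whole ones.
Pdia4 (chr6:47813582-47813640, + strand): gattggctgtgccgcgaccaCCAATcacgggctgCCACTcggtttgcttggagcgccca
Dnajb9, Xbp1 and Sdf2l1 held neither form. CCAAT alone, which is part of the element, was in 8 of the 9 windows and in 33.8% of all. Of the 2 other elements searched, ERSE-II (ATTGG, any 1 base, CCACG) was in 0 of the 9 windows and 0.0304% of all, and the XBP1 element TGACGTGG in 0 of the 9 and 0.563% of all. A match is a run of letters and not a measured binding site.

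The total of gene counts per library ran between 8509987 and 29909400. Some libraries stood apart from the others of their group. The SD of the log2 difference over genes was 0.28 between 3D replicates 1 and 2 and 1.06 between 3D replicates 1 and 3. Replicate 3 also stood apart in 2D, in 3D-2D-3D and on the 3 substrates, and replicate 1 in both 5-day groups. All 28 pairs of libraries within a group differed beyond counting noise, with a chi-square per degree of freedom of 1.43 or more. That does not show that they are separate cultures. Each library was counted on its own, and fits with the most alike libraries summed are given below. Each of 10 fibroblast markers averaged at least 1 CPM in each of the 10 groups, and 0 of 10 markers of B, plasma and T cells did in any, with a sum of at most 1.04 CPM. Markers of macrophages had 13 to 15 of 15 genes at a mean of at least 1 CPM in each group. Their level differed between groups but did not follow 3D or 2D throughout. They summed to 7933, 5576 and 207 CPM in 3D against 1126 to 1419 CPM in 2D, and to 3059 to 11300 CPM in 3D-5days against 701 to 2866 CPM in 2D-5days. In 3D-2D-3D they summed to 218 to 237.5 CPM, below the 446.5 to 454.5 CPM of 3D-2D-2D. Their part in the results on 3D cultures was not tested beyond the values of replicate 3 given below, and in bulk RNA fewer cells of a type cannot be told from less RNA per cell.

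Summed over the 10 genes, the level was lowest in 3D-5days, 3D and 3D-2D-3D, the groups that ended in 3D. With the scaling used here it was highest in 2D and 3D-2D-2D, which ended flat. Levels here are CPM, a gene's count set to a common size of library after each total was multiplied by its TMM factor. From low to high the group means were 2671 CPM in 3D-5days, 2998 in 3D, 3190 in 3D-2D-3D, 3679 in 2D-5days, 3858 in 3D-2D, 4114 on 0.5 kPa, 4285 on 64 kPa, 4305 on 8 kPa, 4436 in 3D-2D-2D and 4513 in 2D. The libraries of all 9 pairs of neighbours in this order overlapped, so neighbouring groups did not differ beyond their spread. As a share of library totals the lowest groups were the same, but 3D-2D-2D (0.390%) had rank 6 from the low end. It lay below 0.5 kPa (0.4275%), 8 kPa (0.441%), 2D (0.443%) and 64 kPa (0.444%). With collagen left out of the totals, 3D-2D-2D also had rank 6 (0.429%). Hspa5, Hsp90b1 and Calr gave between 74.1% and 77.5% of the summed counts in every library, and the sum therefore mostly follows these 3.

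Single genes spread over the groups by different amounts. The highest group mean was 2.41 times the lowest for Manf, 2.11 times for Hsp90b1, 2.06 times for Pdia4 and Sdf2l1, and 1.45 times for Xbp1. The 3D-5days group had the lowest mean of Hspa5, Hsp90b1, Calr, Pdia4 and Pdia6. Of the others, Manf and Creld2 were lowest in 3D, Sdf2l1 in 3D-2D-3D, Xbp1 in 3D-2D and Dnajb9 on 0.5 kPa. Dnajb9 had its highest means in 3D-2D-3D (48.3 CPM) and 3D (40.5 CPM), and its second lowest in 3D-5days (26.7 CPM).

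**Figure D1:**
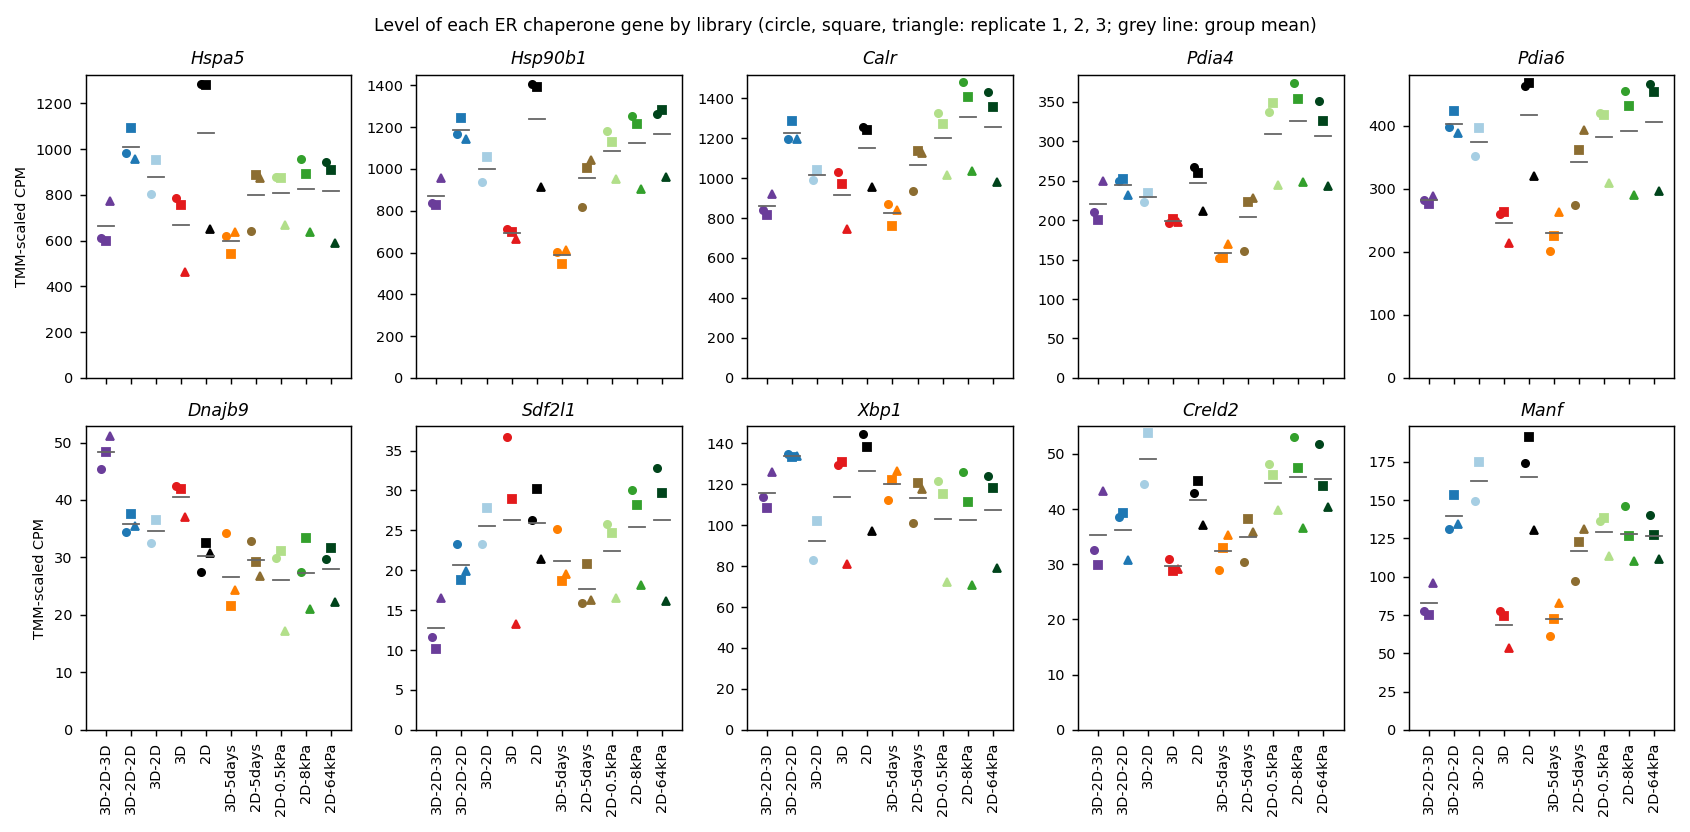
Level of each of the 10 genes in the 29 libraries, in TMM-scaled CPM on a linear axis from 0. Each point is 1 library and each grey line a group mean. Manf is lower in every library that ended in 3D (at most 95.9 CPM) than in every library that ended flat (at least 97.2 CPM), replicate 3 (triangle) is the lowest library of Hspa5 in 3D, in 2D and on the 3 substrates, and Dnajb9 is highest in 3D-2D-3D.

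The first comparison asks how cells held in 3D differ from cells held flat. In 3D, 5 of the 10 genes were lower and 0 were higher: Manf, Hsp90b1, Pdia6, Hspa5 and Creld2 (edgeR, Benjamini-Hochberg adjusted p under 0.05). Among all tested genes, 54% were called in this comparison and 27.3% were called lower, so the share of the set that was called, 5 of 10, was near the background, while all of its calls were in 1 direction. The median log2 fold change was -0.41 over the 10 genes and 0.03 over all genes.

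Manf, a small ER protein that binds BiP and is also secreted, had 77.8, 74.4 and 53.7 CPM in 3D, against 174, 191 and 130.5 CPM in 2D. The highest 3D library was well below the lowest 2D library. Its log2 fold change was -1.27 ± 0.17 (SE, n = 3 each; edgeR adjusted p = 1.61e-06). Creld2, an ER protein induced with the chaperones, had 31.02, 28.7 and 29.2 CPM in 3D and 42.9, 45.1 and 37.2 CPM in 2D, without overlap, and its log2 fold change was -0.49 ± 0.15 (edgeR adjusted p = 0.00843). With the most alike libraries of each group summed, which leaves fewer samples, the fold change of Creld2 was -0.48 and not called (adjusted p = 0.0892).

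Hsp90b1, the Hsp90 chaperone of the ER, had 715, 697 and 667 CPM in 3D and 1409, 1394 and 915 CPM in 2D. The 3D libraries lay close together and the groups did not overlap. Its log2 fold change was -0.84 ± 0.15 (edgeR adjusted p = 8.89e-05). Pdia6, a disulfide isomerase that works with BiP, had 259.9, 262.9 and 213 CPM in 3D and 462, 468 and 319.5 CPM in 2D. Its groups did not overlap either, and its log2 fold change was -0.76 ± 0.19 (edgeR adjusted p = 0.00179).

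Hspa5 had 786, 756 and 465 CPM in 3D and 1285, 1279 and 649 CPM in 2D. The groups overlapped, since replicate 3 of 2D lay below replicates 1 and 2 of 3D. Its log2 fold change was -0.68 ± 0.24 (edgeR adjusted p = 0.02). Each 3D library was lower than the 2D library of the same number, and with those numbers as a replicate block the gene was called (-0.64, adjusted p = 0.0232). The call did not hold when these groups alone were fitted without the block (-0.67, adjusted p = 0.164) or with the most alike libraries summed (-0.67, adjusted p = 0.147), nor without 2D replicate 1 (-0.53, adjusted p = 0.0993), without 2D replicate 2 (-0.53, adjusted p = 0.0981) or without 3D replicate 3 (-0.49, adjusted p = 0.103).

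The lectin chaperone Calr (-0.33 ± 0.16, edgeR adjusted p = 0.0794) and the isomerase Pdia4 (-0.31 ± 0.16, adjusted p = 0.109) were not called. Calr passed without 2D replicate 3 (-0.45, adjusted p = 0.0284) or without 3D replicate 1 (-0.43, adjusted p = 0.0477). Sdf2l1, a partner of BiP and its J-domain helpers, had 36.7, 28.9 and 13.3 CPM in 3D and 26.3, 30.2 and 21.5 CPM in 2D. Replicate 1 of 3D thus lay above every 2D library, replicate 2 within their range and replicate 3 below them. The log2 fold change was 0.02 ± 0.30 (edgeR adjusted p = 0.964). Xbp1 (-0.15 ± 0.22, adjusted p = 0.575) was not called. Dnajb9, a J-domain helper that XBP1 induces, had 42.5, 41.9 and 37.0 CPM in 3D and 27.4, 32.6 and 30.8 CPM in 2D. Every 3D library was above every 2D library, but edgeR did not call it (0.42 ± 0.19, adjusted p = 0.0675). With the replicate block it was at 0.43 and not called (adjusted p = 0.0516). It passed at 0.43 with these groups alone and no block (adjusted p = 0.0279), at 0.45 by DESeq2 (adjusted p = 0.0421), at 0.47 with collagen reads left out of the scaling (adjusted p = 0.0443) and at 0.54 with library totals alone (adjusted p = 0.0169).

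The libraries that stood apart bear on these values. With replicates 1 and 2 of both groups alone, the same 5 genes were called, from -1.29 for Manf to -0.58 for Creld2, beside 7071 of all 13986 tested genes. With replicate 3 of each group alone, with the spread estimated in the remaining groups, Manf was still called (-1.26 ± 0.25, edgeR adjusted p = 0.00089). The other 4 were not, at -0.44 for Hsp90b1, -0.57 for Pdia6, -0.47 for Hspa5 and -0.33 for Creld2. In that pair of libraries the macrophage markers summed to 207 CPM in 3D and 1419 CPM in 2D, the reverse of the other replicates.

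**Figure D2:**
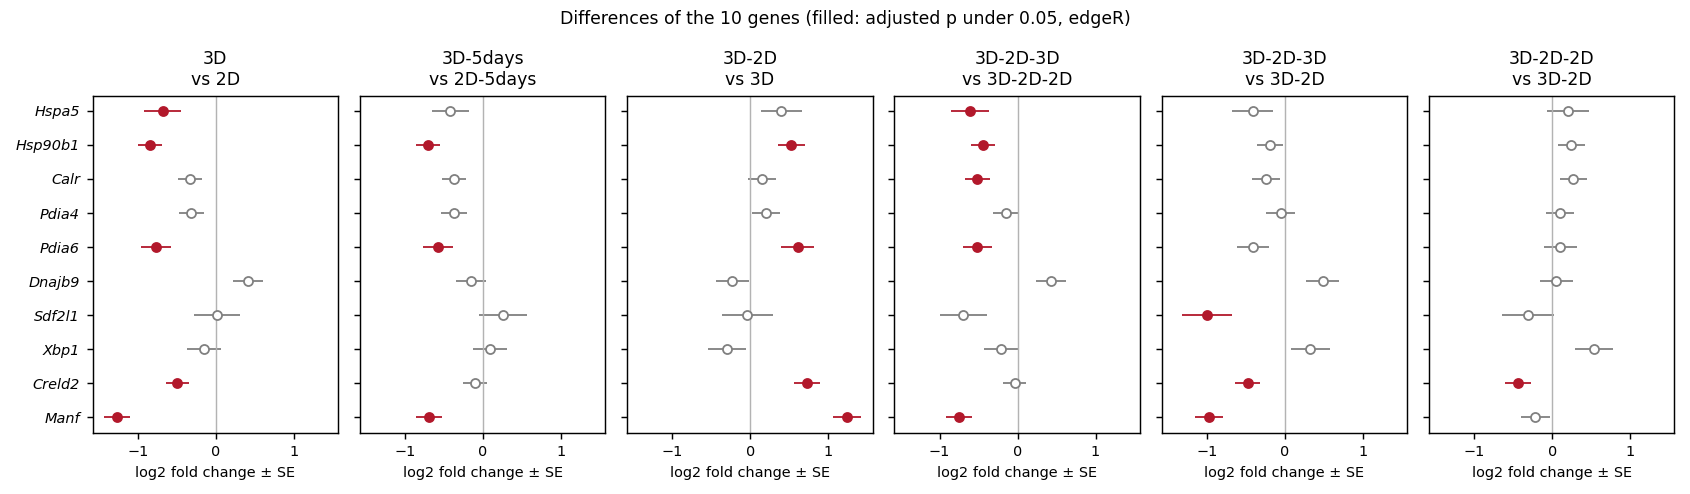
Log2 fold change with its standard error of each of the 10 genes in 6 comparisons, each named above its panel. Filled points passed an adjusted p under 0.05 by edgeR. Manf is filled in 5 of the 6 panels and Dnajb9 in 0, and in the first panel 5 genes are filled, all left of 0.

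Cultures held for 5 days gave the same comparison in a separate pair of groups. In 3D-5days, Hsp90b1, Manf and Pdia6 were lower and 0 of the 10 genes were higher, against 32.4% of all genes called and 17.5% called lower. The median log2 fold change was -0.37 over the 10 genes and 0.00 over all genes. Hsp90b1 had 602, 547 and 614 CPM in 3D-5days, against 816, 1006 and 1044 CPM in 2D-5days (-0.70 ± 0.15, n = 3 each; edgeR adjusted p = 0.00112). Manf had 61.6, 72.7 and 83.0 CPM in 3D-5days and 97.2, 123 and 131 CPM in 2D-5days (-0.69 ± 0.17, edgeR adjusted p = 0.00262). Neither gene overlapped between the groups. With the most alike libraries summed, Hsp90b1 (-0.63, adjusted p = 0.0775), Manf (-0.68, adjusted p = 0.0674) and Pdia6 (-0.54, adjusted p = 0.216) were not called.

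Pdia6 had 201, 225.7 and 263 CPM in 3D-5days and 274, 361.5 and 393 CPM in 2D-5days (-0.58 ± 0.19, edgeR adjusted p = 0.0228). Its call was lost without 2D-5days replicate 2 (-0.52) or 3 (-0.45), without 3D-5days replicate 1 (-0.49) or 2 (-0.54), and when these groups alone were fitted (-0.54, adjusted p = 0.0549). Hspa5 (-0.42 ± 0.24, adjusted p = 0.192), Calr (-0.37 ± 0.16, adjusted p = 0.077) and Pdia4 (-0.37 ± 0.16, adjusted p = 0.0883) were not called. Without 2D-5days replicate 1, Calr (-0.46, adjusted p = 0.0478) and Pdia4 (-0.51, adjusted p = 0.0225) passed. The same-numbered libraries of these groups were taken as pairs, and with the replicate block all 3 passed (Hspa5 -0.37, Calr -0.33 and Pdia4 -0.32; edgeR adjusted p = 0.0336, 0.0352 and 0.0264). With the block 6 genes of the set were called lower and 0 higher, beside 5265 of all 12484 tested genes called. Without replicate 1 of both groups, the libraries that stood apart, Hsp90b1 (-0.82), Manf (-0.71) and Pdia6 (-0.63) were still called. Among all called genes 46.13% were higher, and 60.79% with library totals alone, a scaling that also ended the call of Pdia6 (-0.44, adjusted p = 0.0602). The summed macrophage markers were higher in each 3D-5days library than in each 2D-5days library, 7 of 10 endothelial markers were called higher in 3D-5days, and the part of these cells was not tested.

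The difference between the 2 comparisons was itself tested. Of all genes 25.5% differed in it, and 0 of the 10 did. The smallest adjusted p-values among them were those of Manf (0.58 ± 0.23 for the 5-day difference minus the other, edgeR adjusted p = 0.0754) and Dnajb9 (-0.57 ± 0.27, adjusted p = 0.133). With the replicate block both passed, at 0.57 and -0.59 (adjusted p = 0.0131 and 0.0487). Manf also passed without 2D replicate 3 (0.72, adjusted p = 0.0245), 3D replicate 1 (0.70, adjusted p = 0.0444) or 3D-5days replicate 1 (0.68, adjusted p = 0.0453), and Dnajb9 without 3D-5days replicate 1 (-0.79, adjusted p = 0.0358).

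When cells from 3D were moved to a flat layer (3D-2D), several of the genes that were low in 3D were higher. Against 3D, 4 of the 10 were higher and 0 lower: Manf, Creld2, Pdia6 and Hsp90b1. Of all genes 56.5% were called and 28.8% were called higher, so here too the share of the set was no larger than the background. The median log2 fold change was 0.30 over the 10 genes and -0.02 over all genes. This comparison and the first share the 3D libraries, so their values are not independent.

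Manf had 149.7 and 175 CPM in 3D-2D (n = 2), against 77.8, 74.4 and 53.7 CPM in 3D (1.24 ± 0.18, edgeR adjusted p = 5.66e-06). Creld2 had 44.5 and 53.7 CPM in 3D-2D and 28.7 to 31.02 CPM in 3D (0.73 ± 0.16, adjusted p = 0.000759). Both genes were above every 3D library. Pdia6 had 352 and 396 CPM in 3D-2D and 213 to 263 CPM in 3D (0.61 ± 0.21, adjusted p = 0.0169). Hsp90b1 had 940 and 1057 CPM in 3D-2D and 667 to 715 CPM in 3D (0.53 ± 0.17, adjusted p = 0.0111). The groups did not overlap in either gene. Without 3D-2D replicate 2 neither was called (Pdia6 0.53, adjusted p = 0.117, and Hsp90b1 0.45, adjusted p = 0.102), and without 3D replicate 3 Pdia6 was not (0.52, adjusted p = 0.0595). Hspa5 (0.39 ± 0.26, adjusted p = 0.207), Dnajb9 (-0.23 ± 0.21) and Xbp1 (-0.30 ± 0.25) were not called. The summed macrophage markers were 786 and 591 CPM in 3D-2D, between those of 3D replicate 3 and of 3D replicates 1 and 2, and 10 of 15 macrophage and 8 of 10 endothelial markers were called lower in 3D-2D. Their part was not tested.

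Between 3D-2D and cells kept flat throughout (2D), 0 of the 10 genes were called, against 14.4% of all genes, of which 6.85% were called higher and 7.54% lower. Manf had 149.7 and 175 CPM in 3D-2D and 130.5 to 191 CPM in 2D (-0.02 ± 0.18, edgeR adjusted p = 0.948). All 10 genes overlapped between these groups, and their log2 fold changes lay between -0.45 (Xbp1) and 0.24 (Creld2). With standard errors of 0.17 to 0.33, this fit could miss differences of that size. With the replicate block, 7 of the 10 were called lower and 0 higher, beside 6264 of all 13349 tested genes, though these libraries share only a number. Without 2D replicate 3, Hsp90b1 was called lower in 3D-2D (-0.49, adjusted p = 0.0303).

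Cells were then moved a second time, from 3D-2D back to 3D (3D-2D-3D) or to a flat layer again (3D-2D-2D). Against 3D-2D-2D, 5 genes were lower in 3D-2D-3D and 0 were higher: Manf, Calr, Hsp90b1, Pdia6 and Hspa5. Of all genes 40.4% were called, 20.6% lower and 19.8% higher. The median log2 fold change was -0.48 over the 10 genes and -0.01 over all genes. Markers of cell types moved as well: 5 of 10 fibroblast, 5 of 10 endothelial and 4 of 8 pericyte and smooth muscle markers were called lower. The fibroblast list holds Col1a1 (-1.40), Col1a2 (-0.96) and Col3a1 (-3.05), all called lower and all part of the collagen load below. Summed fibroblast markers, mostly reads of these chains, were 18150 to 24930 CPM in 3D-2D-3D and 68530 to 74630 CPM in 3D-2D-2D. That sum is therefore not separate from the collagen load. Summed macrophage markers were 218 to 237.5 CPM in 3D-2D-3D and 446.5 to 454.5 CPM in 3D-2D-2D. Summed endothelial markers, though, were 148 to 210.0 CPM in 3D-2D-3D and 82.6 to 89.1 CPM in 3D-2D-2D. The part of these shifts was not tested.

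Manf had 77.6, 74.9 and 95.9 CPM in 3D-2D-3D, against 131.5, 153.5 and 134.5 CPM in 3D-2D-2D (-0.76 ± 0.17, n = 3 each; edgeR adjusted p = 0.000855). Calr had 838, 813 and 921.5 CPM in 3D-2D-3D and 1197, 1286 and 1194 CPM in 3D-2D-2D (-0.51 ± 0.16, adjusted p = 0.0116). Neither gene overlapped. Hsp90b1 (-0.44 ± 0.15, adjusted p = 0.0241), Pdia6 (-0.51 ± 0.19, adjusted p = 0.0332) and Hspa5 (-0.61 ± 0.24, adjusted p = 0.0448) also stood apart without overlap. Sdf2l1 had 11.6, 10.2 and 16.5 CPM in 3D-2D-3D and 23.3, 18.7 and 19.9 CPM in 3D-2D-2D, again without overlap, and was not called (-0.69 ± 0.30, adjusted p = 0.0716), but passed without 3D-2D-3D replicate 3 (-0.92, adjusted p = 0.0358). Dnajb9 was higher in every 3D-2D-3D library (45.4 to 51.1 CPM) than in every 3D-2D-2D library (34.4 to 37.6 CPM) and was not called (0.43 ± 0.19, adjusted p = 0.0753).

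The calls depended on the scaling, the filter and single libraries. The 3D-2D-2D libraries gave 8.81% to 9.26% of their counts to collagen, against 3.60% to 4.48% in 3D-2D-3D. With library totals alone, 71.48% of all called genes were higher, against 49% with TMM, and the median of all genes moved to 0.22. The log2 fold changes were then -0.38 for Hspa5, -0.21 for Hsp90b1, -0.29 for Calr and Pdia6 and -0.53 for Manf. Of the 10, Manf (adjusted p = 0.0083) and Dnajb9, higher at 0.66 (adjusted p = 0.0054), were called, and Pdia4, Xbp1 and Creld2 changed sign. With collagen left out of the TMM scaling, Hspa5 alone lost its call (-0.60, adjusted p = 0.0515). With no filter on low counts, Hspa5 (-0.59, adjusted p = 0.075), Hsp90b1 (-0.42, adjusted p = 0.0506) and Pdia6 (-0.49, adjusted p = 0.0599) lost theirs. Manf was called when any of the 6 libraries was left out. Pdia6 lost its call in all 6 cases, Hspa5 in 5, Hsp90b1 in 4 and Calr in 2 (without 3D-2D-3D replicate 2, -0.46, and without 3D-2D-2D replicate 2, -0.48).

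Set against their common source, 3D-2D, the cultures moved back to 3D had 3 genes lower and 0 higher, with 49.2% of all genes called, 25% lower and 24.2% higher. Manf (-0.97 ± 0.18, edgeR adjusted p = 0.000121), Sdf2l1 (-0.999 ± 0.33, adjusted p = 0.0145) and Creld2 (-0.48 ± 0.16, adjusted p = 0.0199) were lower. Sdf2l1 had 11.6, 10.2 and 16.5 CPM in 3D-2D-3D and 23.3 and 27.8 CPM in 3D-2D, and Creld2 had 32.6, 29.8 and 43.3 CPM in 3D-2D-3D and 44.5 and 53.7 CPM in 3D-2D. Both genes lay lower in each 3D-2D-3D library, but the gap was narrow for Creld2 in replicate 3. Sdf2l1 lost its call without 3D-2D replicate 2 (-0.87) or 3D-2D-3D replicate 2 (-0.88), and Creld2 without 3D-2D replicate 2 (-0.34) or 3D-2D-3D replicate 1 (-0.44) or 2 (-0.39). Dnajb9 (0.48 ± 0.21, adjusted p = 0.0641) passed by DESeq2 (0.49, adjusted p = 0.0466) and with library totals alone (0.57, adjusted p = 0.0262).

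Between 3D-2D-2D and 3D-2D, Creld2 was lower in 3D-2D-2D (-0.44 ± 0.17, edgeR adjusted p = 0.0346) and 0 of the other genes of the set were called, while 46.5% of all genes were called and 23.6% were called lower. Creld2 had 38.6, 39.3 and 30.7 CPM in 3D-2D-2D and 44.5 and 53.7 CPM in 3D-2D. The call was lost without 3D-2D replicate 2 (-0.30), and without 3D-2D-2D replicate 1 (-0.46), 2 (-0.47) or 3 (-0.33). Xbp1 had 134.9, 133 and 134 CPM in 3D-2D-2D and 82.9 and 101.9 CPM in 3D-2D, without overlap, and was not called (0.54 ± 0.25, adjusted p = 0.0811). Of all called genes 49.17% were higher, and 37.39% with library totals alone. The comparisons of 3D-2D-3D, 3D-2D-2D and 3D-2D with each other share libraries, and no overlap of their genes was counted.

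On flat substrates of 0.5, 8 and 64 kPa the ranges of all 10 genes overlapped in every pair. In each of the 3 pairs, 0 of the 10 genes were called and 0% of all genes were called by edgeR, with 0 called by DESeq2 as well. At an unadjusted p under 0.05 there were 82 genes for 8 against 0.5 kPa, 175 for 64 against 0.5 kPa and 241 for 64 against 8 kPa. The 30 log2 fold changes of the set ran between -0.09 and 0.23 with standard errors of 0.15 to 0.30. With 2 standard errors of this fit, which has no replicate block, on either side they reached from -0.55 to 0.83. Hspa5 had 876, 875 and 670 CPM on 0.5 kPa, 956.5, 891 and 636 CPM on 8 kPa and 946, 908 and 592 CPM on 64 kPa, and replicate 3 was the lowest on each. With the replicate block, 608 genes were called between 64 and 8 kPa and 0 of the 10.

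Collagen reads, the load this set was viewed against, followed a different order of groups. The 44 collagen chain genes summed, from low to high, to 31120 CPM on 8 kPa, 31380 on 0.5 kPa, 33140 on 64 kPa, 33740 in 3D-2D, 40490 in 3D-2D-3D, 46360 in 3D, 48830 in 2D, 49080 in 3D-5days, 76730 in 2D-5days and 103100 in 3D-2D-2D. The 3D-2D-2D libraries (98320 to 106700 CPM) were above every other library. The means of the other neighbours in this order lay within overlapping ranges. Across groups the load spanned 3.31 times, and the summed chaperone level 1.69 times.

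Counted against collagen, the groups fell in the reverse of the collagen order, apart from 2D. The load spanned more than the chaperone sum (3.31 against 1.69 times), so the order of this ratio mostly restates the load. Counts of the 10 genes per 1000 collagen counts averaged 43.0 ± 2.0 (SD) in 3D-2D-2D, 48.7 ± 5.0 in 2D-5days, 57.5 ± 17.95 in 3D-5days, 64.6 ± 6.5 in 3D, 80.3 ± 18.4 in 3D-2D-3D, 96.3 ± 16.6 in 2D, 114 ± 3.6 in 3D-2D, 130 ± 4.6 on 64 kPa, 132 ± 10.5 on 0.5 kPa and 139 ± 7.0 on 8 kPa (n = 2 for 3D-2D, otherwise 3). The 3D-2D-2D group had the lowest ratio, although its chaperone sum was the second highest in TMM-scaled CPM. As a share of library totals that sum had rank 6 from the low end. In this order 7 of the 9 neighbouring pairs overlapped. The exceptions were 3D-2D-2D below 2D-5days and 3D-2D below 64 kPa.

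**Figure D3:**
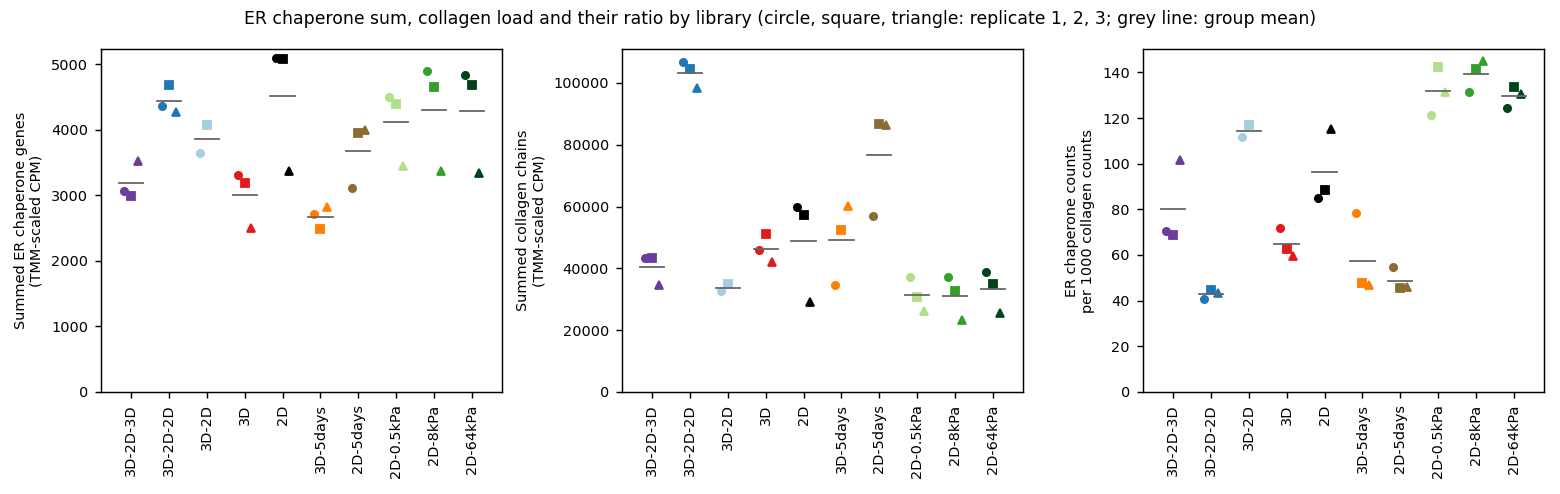
Summed level of the 10 genes (left, CPM), summed level of the 44 collagen chains (middle, CPM) and counts of the 10 genes per 1000 collagen counts (right) in each library, with group means as grey lines. The 3D-2D-2D libraries are near the top on the left, alone at the top in the middle and at the bottom on the right, where they lie between 40.9 and 44.8.

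Between 3D and 2D the ranges of the chaperone sum did not overlap, and those of the collagen load did. The 10 genes summed to 3305, 3190 and 2500 CPM in 3D and to 5095, 5076 and 3367 CPM in 2D, without overlap, a ratio of 0.664. As a share of library totals the groups overlapped, at 0.274% to 0.347% in 3D and 0.333% to 0.499% in 2D. Collagen summed to 46000, 50990 and 42090 CPM in 3D and to 59950, 57370 and 29170 CPM in 2D, which overlapped, a ratio of 0.949. The most read chains, Col1a1 (-0.06 ± 0.33), Col3a1 (0.22 ± 0.61), Col1a2 (-0.12 ± 0.26) and Col4a1 (0.07 ± 0.14), were not called (edgeR adjusted p = 0.893, 0.784, 0.72 and 0.707). The standard errors of Col1a1, Col3a1 and Col1a2 are wide, and replicate 3 of 2D had the lowest load of any library off the stiffness substrates. A similar load did not mean unchanged chains. Of the 36 collagen chains tested, 16 were called higher in 3D and 7 lower, with a median log2 fold change of 0.69. Among all genes 26.7% were called higher and 27.3% lower. Col1a1, Col1a2 and Col3a1 together gave 41.6% to 78.1% of the collagen counts of a library.

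The moves after 3D separated the 2 quantities further. In 3D-2D the chaperone sum was 3643 and 4074 CPM, against 2500 to 3305 CPM in 3D, while collagen was 32620 and 34870 CPM in 3D-2D, against 42090 to 50990 CPM in 3D. The first was higher and the second lower, both without overlap. Col3a1, the type III chain, was lower in 3D-2D than in 3D (-1.95 ± 0.74, edgeR adjusted p = 0.0295). In 3D-2D-2D, collagen was 3.06 times the level in 3D-2D, and the chaperone sum 1.15 times. As shares of library totals these ratios were 2.77 and 1.04. Col1a1 (1.64 ± 0.39), Col1a2 (1.40 ± 0.30) and Col3a1 (3.96 ± 0.82) were higher in 3D-2D-2D than in 3D-2D (edgeR adjusted p = 0.00139, 0.000638 and 0.00048), while Hspa5 was at 0.20 ± 0.27 and Hsp90b1 at 0.25 ± 0.17 and neither was called.

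**Figure D4:**
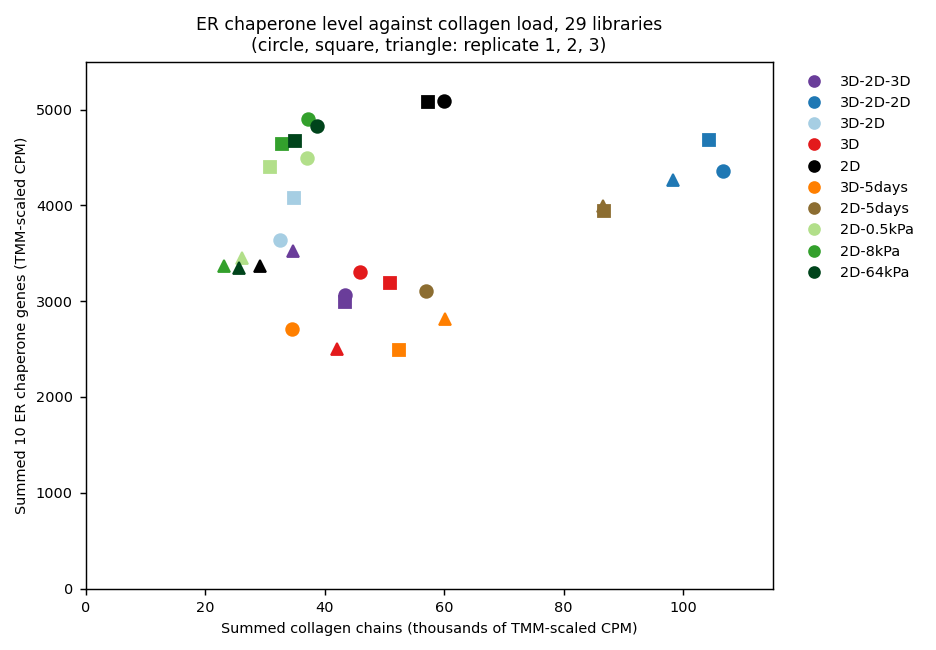
Summed level of the 10 genes (vertical, CPM) against summed collagen chains (horizontal, in units of 1000 CPM), 1 point per library. The 3D-2D-2D libraries lie far to the right at 4269 to 4681 CPM, a height that the 2D and substrate libraries reach with less collagen. Replicate 3 (triangles) of 2D and of the substrates is low on both axes.

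Over the 10 group means, the log2 chaperone sum and the log2 collagen load had a Pearson correlation of -0.01 and a Spearman correlation of -0.09, and without 3D-2D-2D the Pearson value was -0.40. Xbp1 was the exception among the 10 genes, with 0.775 (Spearman 0.818, and 0.631 without 3D-2D-2D). The others ran from -0.57 for Creld2 to 0.25 for Hspa5. Within groups the picture differed: deviations of the 29 libraries from their group means correlated at 0.772 for the sum, 0.881 for Pdia6 and 0.095 for Dnajb9. Without the 2 libraries farthest from the median, 2D replicate 3 and 3D-5days replicate 1, the value for the sum was 0.788. These are descriptions over points that share a total, a scaling and the sets of libraries that stood apart.

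The 10 genes did not all move alike. Over group means, 21 of their 45 pairs had a Pearson correlation above 0.5 and 15 were below 0. The median correlation with the other members was 0.824 for Hsp90b1, 0.792 for Pdia6 and 0.766 for Manf, against -0.16 for Xbp1 and -0.31 for Dnajb9. Over deviations within groups, 40 of the 45 pairs were above 0.5. Among 9144 well-read genes (mean log2 CPM from 3 upwards), the 5 whose levels over the 29 libraries were most like the mean of the set were Ostc (0.937), Tmed9 (0.887), Txndc11 (0.882), Surf4 (0.882) and Rpn1 (0.874). Ostc and Rpn1 are parts of the complex that attaches N-glycans, Tmed9 and Surf4 are cargo receptors of the early secretory route, and Txndc11 is an ER thioredoxin-like protein.

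The element shown above can be set beside these calls. In 3D against 2D, the 4 called genes that had a window all held a whole ERSE, and of the 5 uncalled genes with a window 1 did, Calr. In 3D-2D-3D against 3D-2D-2D the numbers were again 4 of 4 and 1 of 5, with Calr among the called and Creld2 uncalled. In 3D-2D against 3D they were 3 of 3 and 2 of 6, at 5 days 2 of 2 and 3 of 7, and in 3D-2D-2D against 3D-2D 1 of 1 and 4 of 8. In 3D-2D-3D against 3D-2D they were 1 of 2 called genes and 4 of 7 uncalled ones. Whether the element goes with the calls was not tested. The comparisons share libraries, the genes are few, and Manf, which was called in most of these comparisons, had no window.

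Other parts of the ER folding route were counted from lists of textbook members. In 3D against 2D, 15 of 21 genes of ER exit and retrieval were lower and 1 was higher, with a median log2 fold change of -0.56. Mcfd2 (-0.996 ± 0.16) and Sec23a (-0.89 ± 0.10), which sort and coat cargo at ER exit, and Kdelr2 (-0.83 ± 0.13), the receptor that returns escaped chaperones, were among them. Of 23 genes of translocation and signal peptide cleavage 13 were lower and 1 higher, led by the signal peptidase subunit Spcs3 (-2.03 ± 0.18). Of 17 genes of N-glycosylation and the calnexin cycle 9 were lower and 0 higher, among them Ostc (-0.93 ± 0.20) and Magt1 (-0.85 ± 0.10). These shares stood beside 27.3% lower and 26.7% higher among all genes.

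Among 19 other ER chaperones and folding helpers the calls went both ways, with 7 lower and 4 higher. Serpinh1, the collagen-specific chaperone, was lower (-1.43 ± 0.24), as were the prolyl isomerases Fkbp11 (-1.28 ± 0.24) and Fkbp14 (-1.0 ± 0.15) and the BiP exchange factor Hyou1 (-0.91 ± 0.14). Of 19 genes of disulfide exchange and oxidation 7 were lower and 3 higher. Of 18 collagen folding enzymes, a list that shares Serpinh1 with the chaperones, 8 were lower and 4 higher, with the prolyl hydroxylase subunit P4ha3 at -2.34 ± 0.17 and the glycosyltransferase Colgalt2 at 3.38 ± 0.74. Of 19 tested genes of ER-associated degradation 7 were lower and 5 higher, and the lectins Os9 (1.03 ± 0.13) and Erlec1 (0.99 ± 0.16), which hand misfolded glycoproteins to disposal, were higher.

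Of 7 genes of the sensors, Eif2ak3 (0.36 ± 0.09) and the protease Mbtps1 (0.39 ± 0.12), which cuts ATF6, were higher and 0 were lower, a share near the 26.7% higher among all genes. The PERK and ATF4 arm was mixed, with 4 of 13 lower and 3 higher. Psat1 (-3.43 ± 0.19) and Asns (-1.86 ± 0.32), which make serine and asparagine, and Chac1 (-1.68 ± 0.48) were lower, and Atf3 (2.23 ± 0.63) was higher. Folding genes outside the ER were lower too: of 22 cytosolic and mitochondrial chaperones 14 were lower and 1 higher, among them Hsp90aa1 (-1.49 ± 0.13), Hspd1 (-1.27 ± 0.13) and Stip1 (-1.13 ± 0.09).

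In 3D-2D against 3D several of these counts turned. Of the ER exit list 12 of 21 were higher and 1 lower, of the translocation list 11 of 23 and 0, of the N-glycosylation list 5 of 17 and 0, and of the cytosolic and mitochondrial chaperones 17 of 22 and 2, against 28.8% higher and 27.7% lower among all genes. Hsp90aa1 (1.65 ± 0.14), Spcs3 (2.17 ± 0.20), Fkbp11 (2.05 ± 0.26) and Mcfd2 (1.43 ± 0.17) were higher. Other lists went both ways: 6 of 19 other ER chaperones were higher and 4 lower, 4 of 19 disulfide genes higher and 2 lower. Of the degradation list 9 of 19 were higher and 5 lower, and of the collagen folding enzymes 5 of 18 and 2. The PERK and ATF4 arm did not turn, with 6 of 13 lower, 2 higher and a median log2 fold change of -0.73. Its gene Psat1 went the other way, at 3.24 ± 0.19. These counts rest on the same 3D libraries as those of the first comparison.

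In 3D-2D-3D against 3D-2D-2D, where 20.6% of all genes were lower and 19.8% higher, the lists differed in their counts. Here 9 of the 19 other ER chaperones were lower and 1 higher, and 9 of the 18 collagen folding enzymes were lower and 0 higher, among them Plod2 (-2.54 ± 0.33), P4ha3 (-2.21 ± 0.17) and Serpinh1 (-1.97 ± 0.25). Of the cytosolic and mitochondrial chaperones 1 of 22 was lower and 4 were higher. The translocation list (3 of 23 lower, 2 higher) was below the shares over all genes, and the N-glycosylation list (4 of 17 lower, 2 higher) and the ER exit list (6 of 21 lower, 1 higher) were nearer to the share lower. Of the PERK and ATF4 arm 7 of 13 were lower, among them Chac1 (-3.15 ± 0.51) and Psat1 (-1.58 ± 0.18), and 1, Slc7a11 (2.63 ± 0.50), was higher. At 5 days 17.5% of all genes were lower and 14.9% higher. There 10 of the 19 other ER chaperones were lower in 3D-5days and 0 higher, among them Serpinh1 (-1.39 ± 0.24) and Dnajc3 (-0.87 ± 0.11). Of the 18 collagen folding enzymes 10 were lower and 1 higher, among them P4ha3 (-1.82 ± 0.17). The cytosolic and mitochondrial chaperones had only 4 of 22 lower and 3 higher at 5 days. In the tested difference between the 5-day and the other comparison, 15 of these 22 were called higher and 1 lower, beside 12.3% higher and 13.2% lower among all genes. All values in these lists are edgeR log2 fold changes with standard errors of genes past an adjusted p under 0.05.

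**Figure D5:**
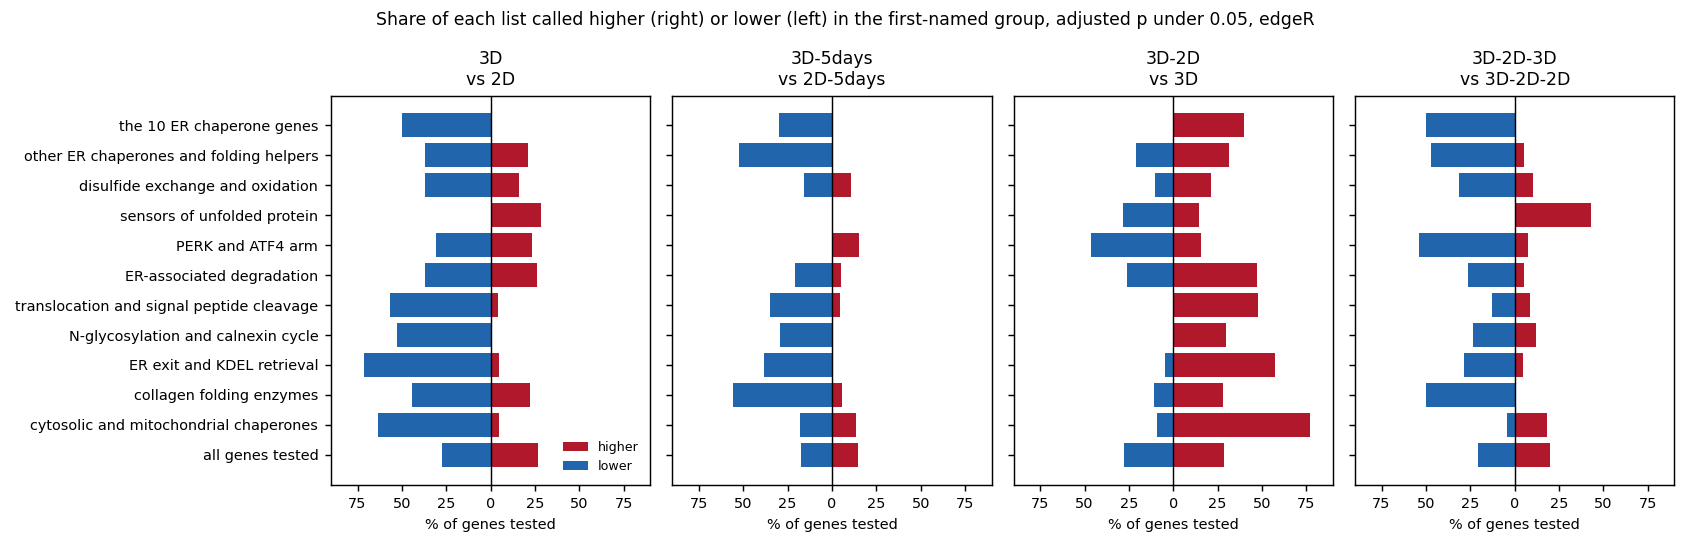
Share of the tested genes of each list called higher (red, right) and lower (blue, left) in the first-named group of 4 comparisons, in percent, with all tested genes as the last bar. In 3D against 2D the blue bars of ER exit (15 of 21) and of the cytosolic and mitochondrial chaperones (14 of 22) are the longest, and in 3D-2D against 3D the red bars of these lists (12 of 21 and 17 of 22) are.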

How the data were processed

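The deposited table held raw counts of reads per gene, and per the submitters' processing notes the build was mm10; MACS2, Bowtie, HTSeq and TopHat are named there, and neither versions nor roles nor a strand setting are. The 5 summary lines were left out of totals: reads not uniquely placed were 14.0% to 28.4% of a library's gene and summary counts, and those in no feature 4.84% to 10.0%. A second assay of 2 samples was not analysed here.

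A single model over the 29 libraries, in which each group had its own mean, was fitted by edgeR 4.0.16 quasi-likelihood in R 4.3.3 (limma 3.58.1), with filterByExpr, TMM factors (0.868 to 1.10) and Benjamini-Hochberg adjustment over 14036 genes at 0.05. The scripts were tested on simulated data. Levels are CPM over TMM-scaled totals, with no length correction, so levels of different genes were not compared.

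The genes and lists were chosen with earlier results of these data known. Named list genes are among up to 4 called genes of a list with the largest change in 3D against 2D, or have the list's smallest adjusted p in a comparison; all 10 chaperone genes, the 4 most read collagen chains and the 5 genes most like the set were named. Same-numbered libraries deviated together in 3D and 2D (r of 0.141 to 0.232), in the 5-day groups (0.288 to 0.572) and on the substrates (0.191 to 0.753), and were taken as pairs there. Alternatives were library totals, RLE size factors, scaling without collagen, no filter, DESeq2 1.42.0, the compared groups alone, the replicate block, the most alike libraries of a group summed, replicates 1 and 2 or replicate 3 alone for 3D against 2D, and each library left out. The 5-day comparison without replicate 1, the substrates without replicate 3 and the correlation without 3D-2D-2D were added after seeing the data. Promoter windows are RefSeq's, read with Python 3.11.15.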

Additional observations from a re-analysis of the deposited data

How the results depend on the processing

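Counts below are of the 10 chaperone genes called unless all genes are named, and the cause of each shift was not tested. Library totals in place of TMM gave 2 for 3D-2D-3D against 3D-2D-2D, with 6638 of all 14036 tested genes called. There Pdia4 (0.078), Xbp1 (0.020) and Creld2 (0.19) changed sign. So did Pdia4 (0.031) for 3D-2D-3D against 3D-2D, Pdia4 (-0.047), Pdia6 (-0.036) and Dnajb9 (-0.089) for 3D-2D-2D against 3D-2D, and Creld2 (0.025) at 5 days. That scaling moved the median log2 fold change of all genes to 0.16 for 3D against 2D, -0.16 for 3D-2D against 3D, 0.22 for 3D-2D-3D against 3D-2D-2D, -0.16 for 3D-2D-2D against 3D-2D and 0.13 at 5 days. No filter gave 2 for 3D-2D-3D against 3D-2D-2D (5464 of all 19837 genes) and 0 for 3D-2D-2D against 3D-2D (6201 of 19837). Fitting the compared groups alone called 1 higher and 7 lower for 3D-2D-3D against 3D-2D-2D, with 7400 of all 13088 tested genes called. It called 2 higher and 5 lower for 3D-2D-3D against 3D-2D (8375 of 13779). For 3D-2D-2D against 3D-2D it called 4 higher and 3 lower (9074 of 12981). Over all genes it called 523 for 3D-2D against 2D, 2991 at 5 days and 2157 for the difference between the 5-day and the other comparison.

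With the replicate block, 8 were called for 3D-2D against 3D, 5 higher and 3 lower, beside 9957 of all 13921 tested genes. For 3D-2D against 2D, 7 were called, all lower (6264 of all 13349 genes). It gave 9 for 3D-2D-3D against 3D-2D, 2 higher and 7 lower (9429 of 13779). It gave 6 for 3D-2D-2D against 3D-2D, 4 higher and 2 lower (8479 of 12981). At 5 days 6 were called, all lower (5265 of 12484). The difference between the 5-day and the other comparison had 2, 1 higher and 1 lower (3070 of 13275). These pairs, other than the 5-day ones and 3D with 2D, share only a number. On the substrates 2 genes of all were called for 8 against 0.5 kPa and 608 for 64 against 8 kPa. Sdf2l1 changed sign in 3D against 2D (-0.081). The block kept the 5 calls of 3D against 2D, where 5307 of all 13376 tested genes were called.

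With the most alike libraries summed, 15136 genes were tested, and the number called among all of them follows in brackets. Summing gave 3 for 3D against 2D (5170), 2 for 3D-2D against 3D (4453) and 1 for 3D-2D-3D against 3D-2D-2D (3807). It gave 1 for 3D-2D-3D against 3D-2D (3728), 0 for 3D-2D-2D against 3D-2D (3636) and 0 at 5 days (2171). Of all genes it called 1042 for the difference and 0 for 3D-2D against 2D. Signs turned for Sdf2l1 in 3D against 2D (-0.13), 3D-2D against 3D (0.15) and 3D-2D against 2D (0.020), for Manf in the last (0.032) and for Creld2 in 3D-2D-3D against 3D-2D-2D (0.065). Replicate 3 alone gave 1 for 3D against 2D, 4929 of all genes, and Sdf2l1 at -0.67. Substrate replicates 1 and 2 alone gave 1 gene for 64 against 8 kPa.

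Leaving out each library in turn, the counts ran as follows, with all genes second: 3D against 2D 4 to 6 and 6651 to 7339, 3D-2D against 3D 2 to 4 and 5761 to 7845, 3D-2D against 2D 0 to 1 and 171 to 2947, 3D-2D-3D against 3D-2D-2D 1 to 5 and 4701 to 5162, 3D-2D-3D against 3D-2D 1 to 3 and 5081 to 6296, 3D-2D-2D against 3D-2D 0 to 1 and 4634 to 5798, 5 days 2 to 5 and 3651 to 4561, the difference 0 to 2 and 2941 to 3886. Signs turned within these ranges: 3D against 2D, Xbp1 -0.31 to 0.025 and Sdf2l1 -0.30 to 0.32. In 3D-2D against 3D Sdf2l1 ran -0.35 to 0.27. In 3D-2D against 2D Sdf2l1 ran -0.15 to 0.10 and Manf -0.17 to 0.092. In 3D-2D-2D against 3D-2D Pdia6 ran -0.0047 to 0.19 and Dnajb9 -0.057 to 0.13, in 3D-2D-3D against 3D-2D-2D Creld2 -0.21 to 0.081, and at 5 days Dnajb9 -0.37 to 0.0020.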
